A study of Rattus norvegicus with 8 samples.

Results

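Chemokines are small secreted proteins that direct the movement of white blood cells, and chemokine receptors are the membrane proteins through which the cells read them. The genes described here are those whose single annotated symbol begins with Ccl, Cxcl, Ccr or Cxcr followed by a digit, or is Xcl1, Xcr1, Cx3cl1 or Cx3cr1. This naming rule found 53 probe sets of 41 genes, among 31042 tested probe sets and 14217 named genes on the array. A probe set is a group of short probes near the 3' end of a transcript, and each gene is represented by the one with the highest mean over the 8 arrays. There were 29 ligand genes (16 CC, 11 CXC, and Xcl1 and Cx3cl1) and 12 receptor genes (6 CC, 5 CXC and Cx3cr1). Whole blood came from male Wistar rats bought at 7 weeks of age, acclimated for 1 week and then given either a normal diet (CE-2) or a high-fat diet (Quick fat) for 8 weeks. It was collected on day 56 after an overnight fast, and 10 animals were fed in each group. There were 4 arrays per diet, numbered as biological replicates and read here as 1 animal each, since the labels do not say whether blood was pooled. Whole blood is a mixture, so fewer cells of a type and less RNA per cell cannot be told apart.

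A chemokine binds a receptor that spans the membrane 7 times and signals through an inhibitory G protein, which leads to integrin activation, cell arrest and directed migration. The names CC, CXC, XC and CX3C describe how the first cysteines of the ligand are spaced. Inflammatory chemokines such as Ccl2, Ccl3 and Cxcl1 are induced in injured or infected tissue, while homeostatic ones such as Ccl19, Ccl21, Cxcl12 and Cxcl13 place lymphocytes and progenitors in lymphoid organs and marrow. In blood the receptors sit on white cells, and some ligands, Ccl5 above all, are also made by circulating lymphocytes. The term member is used below for any of the 41 genes.

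No chemokine or receptor gene passed the test for a difference between the diets. By limma, 0 of the 53 probe sets passed an adjusted p of 0.05 over all 31042 probe sets (background 0%), and each had an adjusted p of 1. At an unadjusted p under 0.05 there were also 0 among the 53, against 2.25% of all probe sets. In 0 of the 41 genes did the high-fat values lie entirely on one side of the normal values, against a background of 1.44% of probe sets and 187 of 14217 genes. The mean was higher in the high-fat group in 19 genes and lower in 22. That is 46.3% higher, against 47.4% of all genes, and the median difference over the members was -0.0449 within-group SDs against -0.0374 for all genes. A within-group SD is the pooled SD of that probe set inside the diet groups. Without normal replicate 3 the mean was higher in 30 of 41 members, against 45.7% of all genes, so this animal decided the count. The sign of so small a difference also depends on the zero point. Centring each array on its median lowers every high-fat minus normal difference by the same 66.0 millionths, which left 2 members higher and 39 lower (2.38% of all genes higher). After quantile normalization 11 were higher, 13 lower and 17 equal, or 26.8% higher against 24.0% of all genes, so under both scalings the members moved with the whole array.

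The deposited levels read as log2 intensities but differ very little between arrays, so differences are given in millionths of a deposited log2 unit and not as fold changes. The median probe set had an SD of 6.07 millionths over the 8 arrays. Members' SDs ran from 0.694 millionths (Ccl21) to 4235 millionths (Ccl5). How strongly the values were compressed can differ between probe sets, so an SD ranks the deposited spread and not the spread of RNA amount. Blood was recognisable from Hbb, the beta globin gene, at 15.09, the heme enzyme gene Alas2 at 13.68 and the monocyte and macrophage lysozyme gene Lyz2 at 13.22. High-fat replicate 4 stood apart from the other animals. All 8 natural killer and cytotoxic marker genes and all 7 measured monocyte marker genes were highest in it, which applied to 14.0% of all genes. On a scale of SDs from each gene's own 8-animal mean, the natural killer list stood at 2.26 there and between -0.699 and 0.256 in the other 7 animals. The monocyte list stood at 2.04 against -0.948 to 0.439, and the 7 measured platelet markers at -1.83 against -0.271 to 0.659. Normal replicate 3 also stood apart, with the lowest T cell (-1.39), neutrophil (-1.06), monocyte (-0.948) and natural killer (-0.699) marker levels. It was the lowest animal in 1121 of the 1926 genes with an SD in the top 10% of the array, beside 3492 of all 14217 genes. An animal that lies far out widens the SD by itself, so the first count is a description. Results on the members are therefore given with and without high-fat replicate 4 wherever it decides them.

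**Figure D1:**
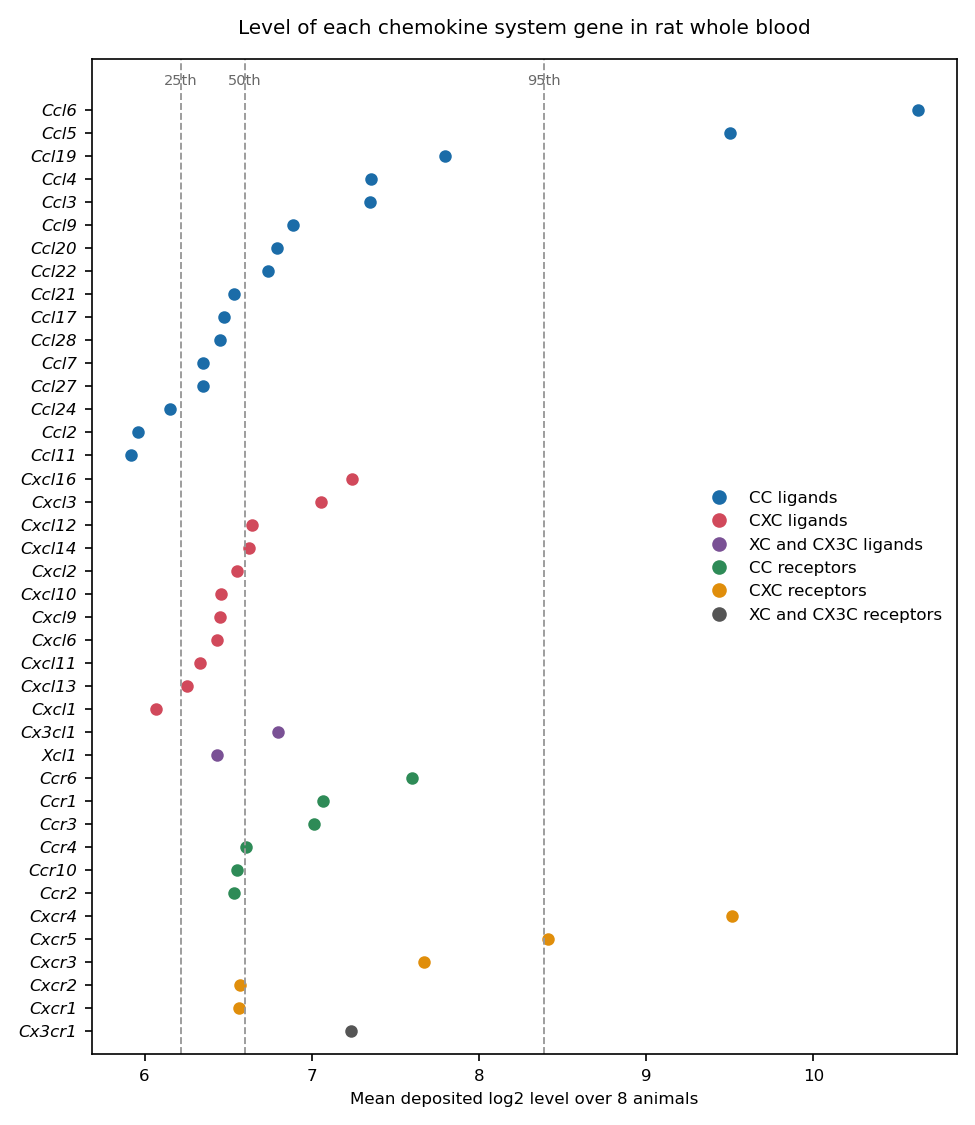
Mean deposited log2 level over the 8 animals (horizontal axis) for each of the 41 genes, coloured by role, with dashed lines at the 25th, 50th and 95th percentiles of all probe set means. Ccl6, Ccl5, Cxcr4 and Cxcr5 lie above the 95th percentile line at 8.39.

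Most members had levels in the lower or middle part of the arrays. The median member was at 6.61, below the 6.88 of the median gene under the same choice of 1 probe set per gene. Over all probe sets the median was 6.60, and it was exceeded by 21 of 41 members and 9295 of 14217 genes. Below the 25th percentile of 6.22 were 4 ligands, Ccl24, Ccl2, Ccl11 and Cxcl1. Probe sets differ in how strongly they bind, so these positions place a reading within the array and do not order the amounts of RNA. Above the 95th percentile were the CC chemokines Ccl6 (10.62) and Ccl5 (9.50), the CXCL12 receptor Cxcr4 (9.51) and the B cell follicle receptor Cxcr5 (8.41). Ccl6 is a chemokine of rodent myeloid cells, and Ccl5 is made by cytotoxic and memory lymphocytes. The neutrophil receptors Cxcr1 and Cxcr2, which bind the chemokines that call neutrophils to inflamed tissue, read at 6.57 each, near the array median.

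The spread between animals set a small group of members apart from the rest. There were 10 genes with an SD in the top 10% of all probe sets, which is 24.4% of the members against 13.5% of all genes. They were the ligands Ccl3, Ccl4, Ccl5, Ccl6, Ccl9, Cxcl16 and Xcl1 and the receptors Ccr1, Ccr2 and Ccr10. In 8 of these 10, all but Ccl6 and Ccr10, the highest animal was high-fat replicate 4. It was also the highest in 35.6% of all genes with an SD in the top 10%, and an animal that lies far out widens the SD by itself, so the count is a description. Over all members it was the highest in 13 of 41, against 14.0% of all genes. It was the highest in 4 of 41 after centring on array medians, which lowers every value of this animal by 137 millionths relative to the mean of the 8. The share of all genes after centring is not given here, so this fall is not read as a result about the members. Normal replicate 3 was the highest in another 13, of which 12 were outside the group of wide spread, against 19.5% of all genes.

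**Figure D2:**
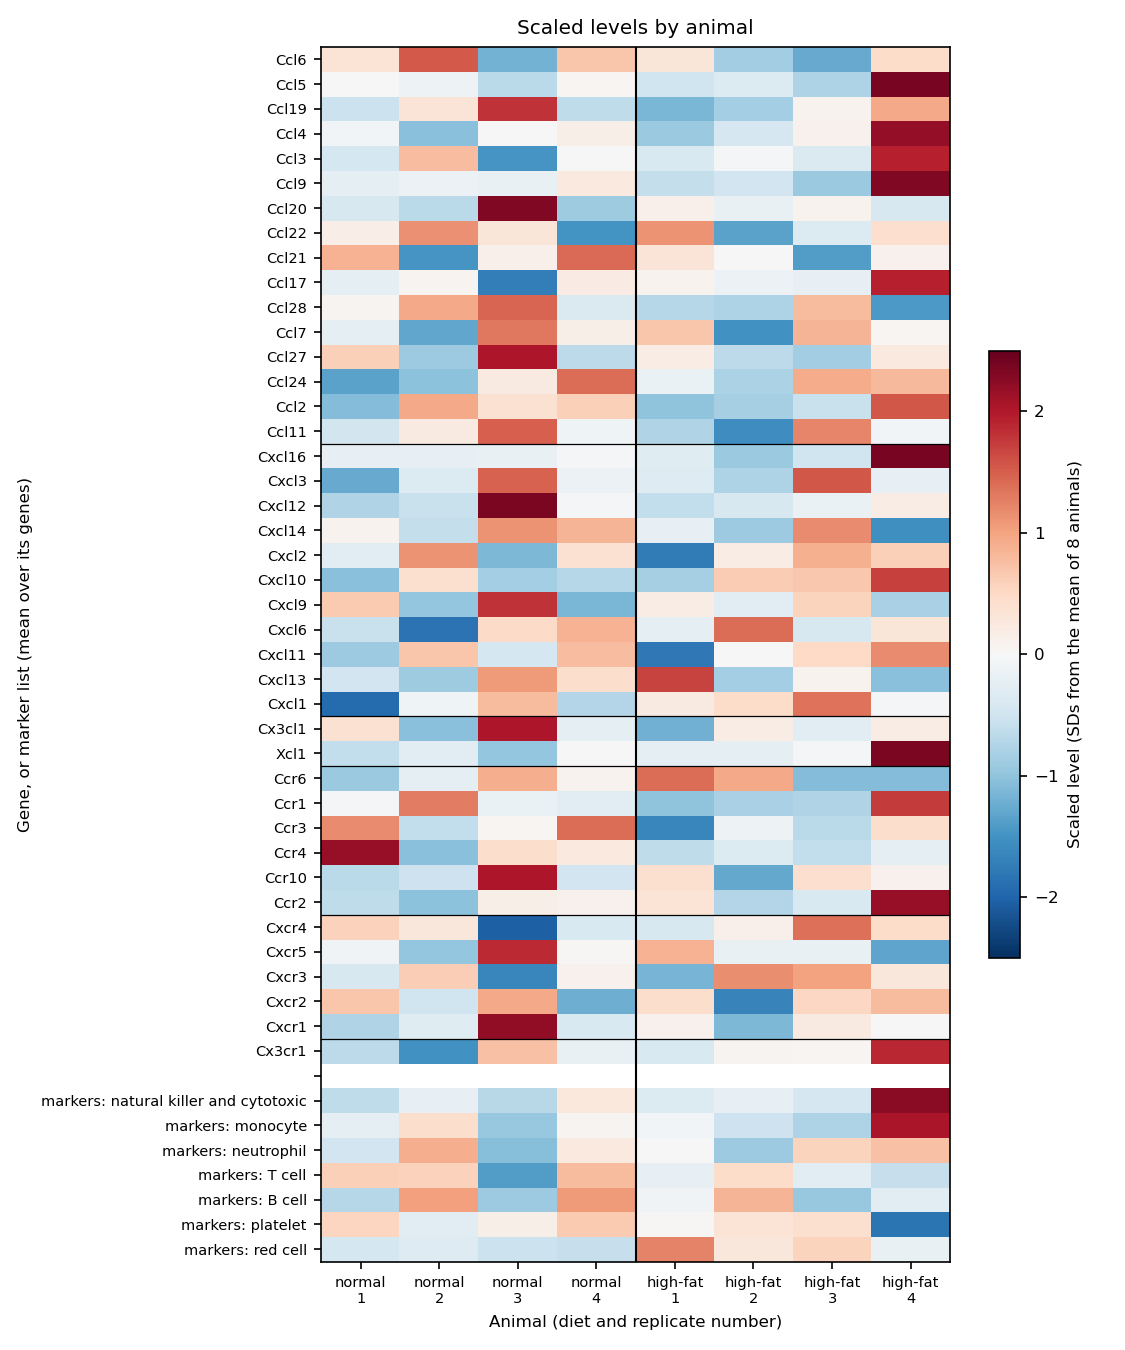
Scaled level (colour, SDs from the mean of the 8 animals) of each gene in each animal, with the genes ordered by role and the means of 7 cell type marker lists at the foot. The high-fat replicate 4 column is darkest for Ccl5, Ccl9, Cxcl16 and Xcl1 and for the natural killer and monocyte markers, and the normal replicate 3 column for Ccl20 and Cxcl12.

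Among the CC ligands, Ccl5 had the widest spread of any member. It binds Ccr1 and Ccr3, among others, and draws T cells, monocytes and eosinophils. Ccl5 deviated from its 8-animal mean by -15.6, -569, -2841 and 173 millionths in normal replicates 1 to 4. In high-fat replicates 1 to 4 it deviated by -2084, -1450.0, -3226 and 10013 millionths. The last animal lay above all others, while the other 3 high-fat animals lay within or below the normal range. The high-fat mean was 1626 ± 2977 millionths (SE, n = 4 and 4) above the normal mean, or 0.363 within-group SDs (limma adjusted p of 1). It turned to -1440.2 millionths once high-fat replicate 4 was left out.

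Ccl9, a chemokine of rodent myeloid cells that signals through Ccr1, had its normal values close together, at -55.0, -33.7, -41.5 and 55.0 millionths. Its high-fat values were -134, -106, -207 and 522 millionths. High-fat replicates 1 to 3 were thus all below every normal animal and replicate 4 far above. The mean difference of 37.6 ± 161 millionths (SE) became -130.1 ± 36.1 without replicate 4, or -2.56 within-group SDs (limma unadjusted p = 0.0120, and adjusted p = 1.00).

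Ccl6 lies next to Ccl9 in the genome and did not share this profile. Its normal values were 204, 901, -700.0 and 407 millionths and its high-fat values 179.7, -513, -744 and 266 millionths. The groups overlapped over most of their range, normal replicate 2 was highest and high-fat replicate 3 lowest. The difference was -406 ± 393 millionths (SE), or -0.686 within-group SDs. Leaving out 1 animal at a time moved it between -173 millionths (without normal replicate 2) and -707 millionths (without normal replicate 3).

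The inflammatory chemokines Ccl3 and Ccl4 were taken up after their values were seen, as were Ccl2 and Ccr2. Ccl3 deviated by -21.1, 36.8, -70.2 and -0.366 millionths in the normal animals and by -18.2, -2.13, -17.6 and 92.8 in the high-fat animals. For Ccl4 the values were -4.94, -78.3, -0.659 and 11.3 millionths, then -69.7, -31.7, 8.07 and 166. Both genes were highest in high-fat replicate 4, and in both the other 3 high-fat animals lay inside the normal range. Their differences of 27.5 ± 32.7 and 36.3 ± 52.3 millionths (SE) became 1.10 and -12.9 without that animal. Ccl2, which calls monocytes out of the marrow through Ccr2, had a dim reading of 5.96. It stood at -38.8, 33.6, 13.3 and 21.6 millionths, then at -35.9, -29.4, -19.8 and 55.5. Here too the high-fat group was split, and the difference of -14.8 ± 24.99 millionths (SE) went from -0.395 to -1.42 within-group SDs without replicate 4.

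The remaining CC ligands had SDs of 0.694 to 17.2 millionths, the widest being that of Ccl7. Ccl28, an epithelial chemokine that binds Ccr3 and Ccr10, had the lowest standing of all members, each by its brightest probe set, at -1.20 within-group SDs. Its values were 0.423, 6.27, 9.60 and -2.31 millionths in the normal animals and -4.65, -5.10, 5.24 and -9.47 in the high-fat animals. One high-fat animal, replicate 3, lay inside the normal range, so the groups overlapped (difference of -6.99 ± 3.95 millionths, SE, and exact permutation p = 0.143, two-sided). The homeostatic ligands of Ccr7, Ccl19 and Ccl21, stood at -0.460 and -0.458 within-group SDs. The eosinophil ligand Ccl11 stood at -0.567, and Ccl17 and Ccl22, ligands of Ccr4, at 0.872 and -0.0624. Ccl7, Ccl20, Ccl24 and Ccl27 lay between -0.521 and 0.358.

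Of the CXC ligands, Cxcl16 had a spread in the top 1% of the array. It is a membrane-bound chemokine and scavenger receptor of macrophages and dendritic cells that binds Cxcr6. Its normal values lay at -95.5, -94.7, -87.6 and -20.2 millionths. The high-fat values were -138, -432, -235 and 1102 millionths, again 3 animals below all normal ones and replicate 4 above. The difference was 149 ± 328 millionths (SE) with all animals and -194 ± 70.3 without replicate 4, or -1.95 within-group SDs (limma unadjusted p = 0.0343, and adjusted p = 1.00).

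Cxcl10, a chemokine induced by interferon that draws activated T cells through Cxcr3, had the smallest p of the 41 genes. It stood at -6.86, 2.70, -5.63 and -4.75 millionths in the normal animals and at -5.44, 4.22, 4.48 and 11.3 in the high-fat animals. Normal replicates 1, 3 and 4 and high-fat replicate 1 were low, and the other 3 high-fat animals lay above every normal one. The difference of 7.28 ± 3.89 millionths (SE) was 1.27 within-group SDs, with a limma unadjusted p of 0.105 and an exact permutation p of 0.0857. The other interferon-induced ligands of Cxcr3 stood at -0.161 (Cxcl9) and -0.0449 (Cxcl11) within-group SDs, and differences between the 3 genes were not tested. Cxcl11 was, like Cxcl10, highest in high-fat replicate 4. Among the neutrophil chemokines, Cxcl1 stood at 1.08 within-group SDs, Cxcl2 at -0.0395 and Cxcl6 at 0.516. Cxcl3 had 5 probe sets. The brightest gave -11.2, -2.96, 13.0 and -1.22 millionths in the normal animals and -2.81, -6.75, 13.7 and -1.75 in the high-fat animals, with replicate 3 highest in both diets. Its difference of 1.18 ± 6.38 millionths (SE) was 0.124 within-group SDs, and the others stood at 0.984, -0.0399, -0.546 and 0.761, so their signs did not match. Cxcl12, Cxcl13 and Cxcl14, which are homeostatic, stood at -0.476, -0.0523 and -0.735. Further probe sets stood at -0.547 and -1.88 for Cxcl12, with the same sign, and at 0.884 for Cxcl14, with the opposite sign.

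Xcl1, or lymphotactin, is made by natural killer cells and CD8 T cells and draws cross-presenting dendritic cells. Its normal values were -42.6, -19.2, -67.3 and 0.693 millionths and its high-fat values -16.6, -16.1, -3.28 and 164. High-fat replicate 4 stood alone, and the other 3 were in the upper part of the normal range. The difference of 64.2 ± 43.8 millionths (SE) was 0.975 within-group SDs. Without replicate 4 it was 20.1 millionths, or 0.865 within-group SDs. Cx3cl1, the membrane-bound ligand of Cx3cr1 made by endothelium and neurons, gave 6.06, -16.5, 32.4 and -3.84 millionths against -19.3, 2.82, -4.47 and 2.88. Its highest animal was normal replicate 3, and its difference of -9.04 ± 11.0 millionths (SE), or -0.550 within-group SDs, moved to 0.0236 without that animal.

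**Figure D3:**
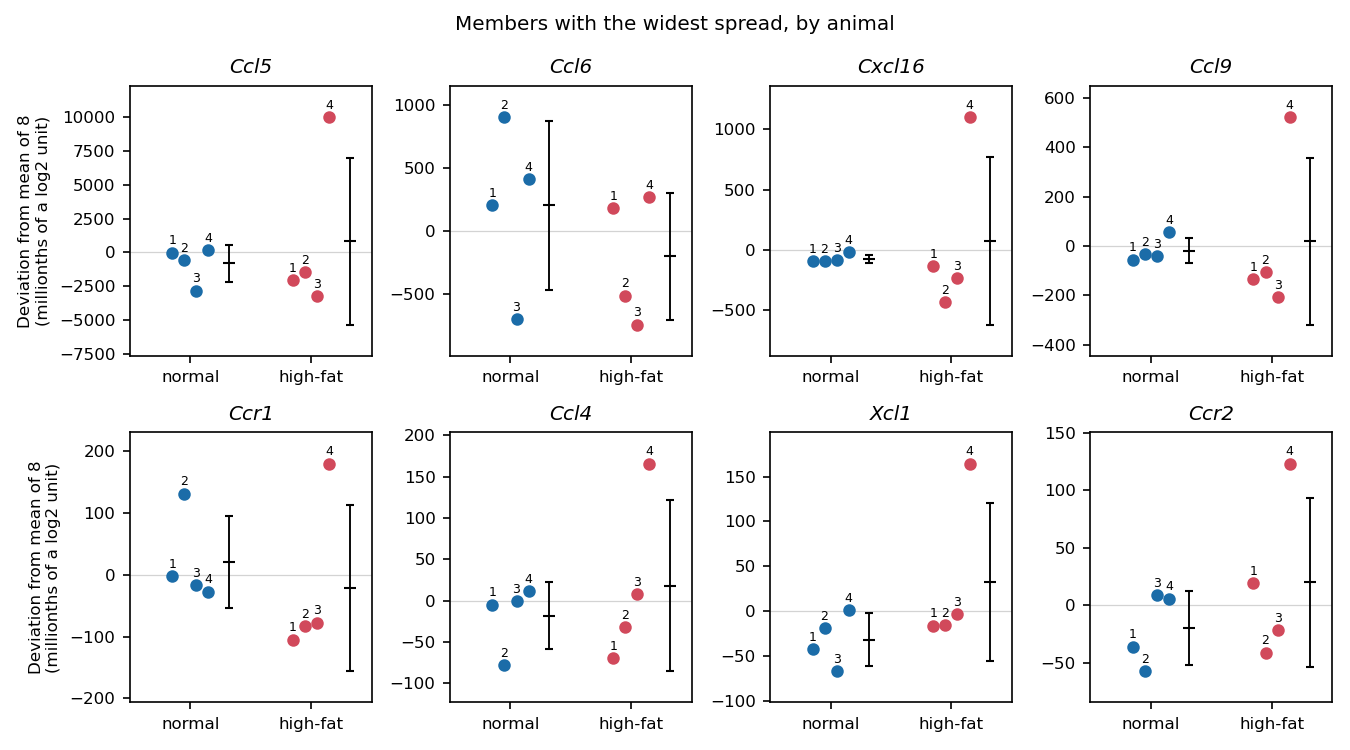
Deviation from the mean of the 8 animals, in millionths of a log2 unit, for the 8 members with the largest SD, with each animal as a point marked by its replicate number and the mean ± SD of each diet beside it (vertical scales differ). High-fat replicate 4 is the highest point in every panel except that of Ccl6.

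Of the receptors carried by monocytes, Ccr1, Ccr2 and Cx3cr1 were measured. Ccr1, a receptor for Ccl3, Ccl5 and Ccl9, gave -2.25, 132, -16.9 and -27.3 millionths in the normal animals and -105, -83.3, -77.3 and 180.2 in the high-fat animals. High-fat replicates 1 to 3 lay below all normal animals. The difference was -42.6 ± 72.4 millionths (SE) and -109.8 ± 41.3 without replicate 4, or -1.88 within-group SDs (limma unadjusted p = 0.0390, and adjusted p = 1.00). Without normal replicate 2, which lay far above the other normal animals, it was -5.83 millionths. Ccr2, the receptor by which monocytes follow Ccl2, gave -36.1, -57.5, 8.57 and 5.54 millionths against 19.4, -41.3, -21.7 and 123. Replicate 4 lay farthest above the normal range and replicate 1 just above it, and the difference of 39.8 ± 37.7 millionths (SE), or 0.702 within-group SDs, became 0.169 without it. Cx3cr1, found on patrolling monocytes and natural killer cells, gave -8.53, -20.0, 9.55 and -2.49 millionths against -5.06, 1.01, 0.745 and 24.8. Its difference of 10.7 ± 8.54 millionths (SE), or 0.840 within-group SDs, became 0.436 in the same way.

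With high-fat replicate 4 left out, Ccl9, Ccr1 and Cxcl16 were the 3 of 41 members in which the diets did not overlap, all lower in the high-fat group. That is 7.32% of the members against 3.10% of all probe sets without that animal. The first share is of genes and the second of probe sets, so they are not in like units. Leaving out any one of the other 7 animals gave 0 or 1 such member. The background was then 2.72%, 3.49%, 4.86% and 3.49% without normal replicates 1 to 4, and 3.13%, 3.36% and 3.58% without high-fat replicates 1 to 3. Each of the 3 was above every other animal in high-fat replicate 4 itself, so the 4 high-fat animals did not form one group in these genes. Each animal was left out in turn, and this one is singled out because its values stood apart. Leaving it out narrows the within-group SD of these genes, so their unadjusted p without it is a description. The share of all probe sets with an unadjusted p under 0.05 without it is not given here. The natural killer and monocyte markers were highest in the same animal, and their part in these values was not tested.

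In the receptors of lymphocytes and granulocytes given next, high-fat replicate 4 was never the highest animal. Cxcr4, which holds progenitors and lymphocytes in the marrow by binding Cxcl12, gave 13.9, 6.88, -50.0 and -9.23 millionths in the normal animals and -9.58, 3.01, 33.8 and 11.2 in the high-fat animals. Normal replicate 3 was lowest and high-fat replicate 3 highest, and the groups overlapped. The difference of 19.2 ± 16.0 millionths (SE) was 0.800 within-group SDs, and 5.74 millionths, or 0.359 within-group SDs, without normal replicate 3. The 2 further probe sets of Cxcr4 stood at 1.52 and 1.42 within-group SDs, with limma unadjusted p of 0.0571 and 0.0711, so all 3 had the same sign. Without normal replicate 3 these 2 further probe sets stood at 1.26 and 1.13 within-group SDs. The brightest is of the kind that its maker marks as open to cross-hybridisation. Cxcr5 guides B cells into follicles. It gave -0.794, -8.39, 16.1 and 0.259 millionths against 7.51, -1.60, -1.65 and -11.5, with normal replicate 3 highest, and a difference of -3.61 ± 6.11 millionths (SE). That is -0.396 within-group SDs, beside -0.224 for its second probe set. Ccr6, a receptor of B cells and of the T cells that make interleukin-17, gave -1.80, -0.483, 1.79 and 0.163 millionths against 2.74, 1.84, -2.12 and -2.12. Its high-fat animals formed a higher and a lower pair around the normal ones, with a difference of 0.167 ± 1.60 millionths (SE), or 0.0791 within-group SDs.

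Ccr3, the receptor of eosinophils and basophils, gave 8.35, -4.35, 0.300 and 9.83 millionths in the normal animals and -11.5, -0.943, -4.75 and 3.07 in the high-fat animals. The lowest and highest animals belonged to different diets, with overlap between them. The difference of -7.06 ± 4.37 millionths (SE) was -1.09 within-group SDs (exact permutation p = 0.171). Ccr4 stood at -0.956, Ccr10 at -0.166, Cxcr3 at 0.645, Cxcr1 at -0.368 and Cxcr2 at 0.0301 within-group SDs. In Ccr10 and Cxcr1 the highest animal was normal replicate 3, at 94.3 and 59.6 millionths. Ccr7, Ccr8, Ccr9, Cxcr6 and Xcr1 had no probe set with that single symbol and were not analysed here.

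**Figure D4:**
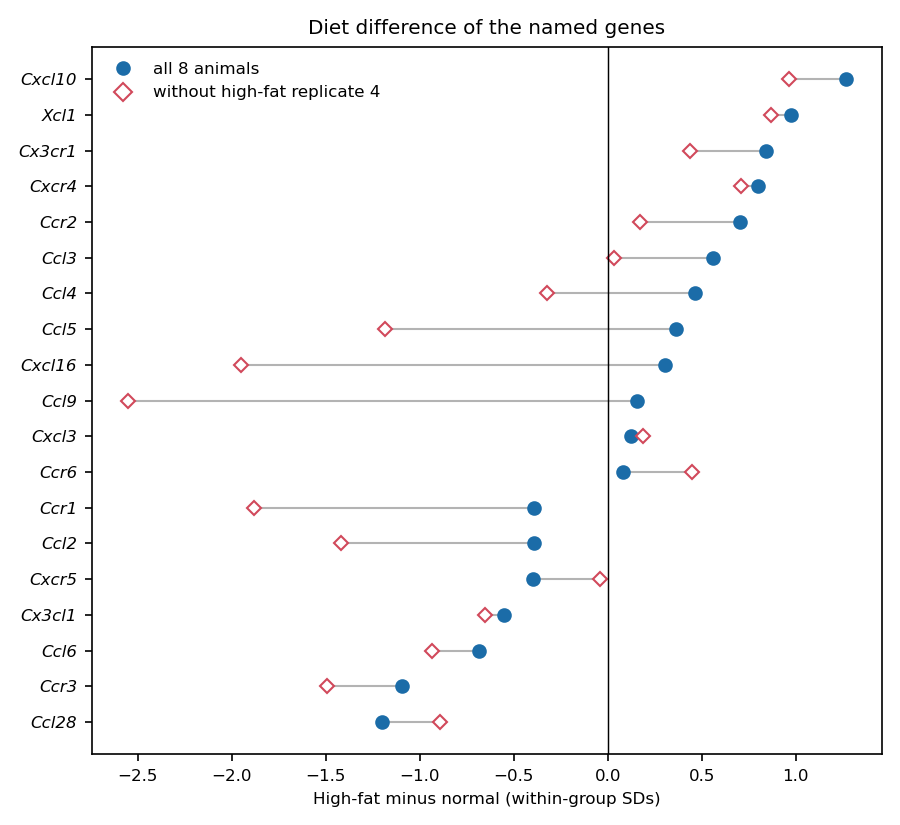
High-fat minus normal in within-group SDs for the 19 genes given with their values, with all 8 animals (filled circles) and without high-fat replicate 4 (open diamonds). Ccl4, Ccl5, Ccl9 and Cxcl16 cross 0 when that animal is left out, and the filled circles run from -1.20 to 1.27.

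Ligands and their receptors were read side by side from a list of 29 textbook pairs, of which 20 had both members measured. Both means were higher in the high-fat group in 4 pairs, both were lower in 5, and they had opposite signs in 11. In the pairs Ccl2 with Ccr2 and Ccl3 with Ccr1, both ligand and receptor were highest in high-fat replicate 4. Cxcl12 stood at -0.476 and Cxcr4 at 0.800 within-group SDs, Cx3cl1 at -0.550 and Cx3cr1 at 0.840, and Cxcl10 at 1.27 and Cxcr3 at 0.645. These pairs share receptors, so they are not separate observations.

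All 41 genes could be placed in the order of protein-coding genes of the rat reference (GRCr8), and 10 lie on chromosome 10. Ccl5, Ccl9, Ccl6, Ccl3 and Ccl4 follow one another there with 0 protein-coding genes between them. Of this run, Ccl6 alone was not highest in high-fat replicate 4. On chromosome 8, Ccr1, Ccr3 and Ccr2 lie within a stretch with 1 other protein-coding gene among them. Ccr1 and Ccr2 were highest in high-fat replicate 4 and Ccr3 in normal replicate 4. Cxcl11, Cxcl10 and Cxcl9 are also neighbours, with Cxcl11 and Cxcl10 highest in high-fat replicate 4 and Cxcl9 in normal replicate 3.

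Start site regions from RefSeq (GRCr8), 250 bases before to 50 after the start, were matched for 32 of the 41 genes. Ccl2, Ccl3, Ccl4, Ccl5 and Ccl11 were among the genes without a region, so no motif was looked for in them. The 6 printed here are those of Ccl9, Cxcl16, Xcl1 and Ccr2, which shared high-fat replicate 4 as their highest animal and had wide spread, of Ccl6, the neighbour that did not share it, and of Cxcl10, the gene with the smallest p. They lie at chr10:68868828-68869127 (Ccl9, minus strand), chr10:68883317-68883616 (Ccl6, minus), chr10:55669901-55670200 (Cxcl16, minus), chr13:79785391-79785690 (Xcl1, minus), chr8:132611953-132612252 (Ccr2, plus) and chr14:15988816-15989115 (Cxcl10, plus). Each is written 5′ to 3′ on the strand of its gene, and capitals mark matches on either strand to 4 motifs, which may overlap: the NF-kB consensus, the interferon element (GAAA, any 2 bases, GAAA), the AP-1 site TGANTCA and the TATA box TATAAA.
Ccl9: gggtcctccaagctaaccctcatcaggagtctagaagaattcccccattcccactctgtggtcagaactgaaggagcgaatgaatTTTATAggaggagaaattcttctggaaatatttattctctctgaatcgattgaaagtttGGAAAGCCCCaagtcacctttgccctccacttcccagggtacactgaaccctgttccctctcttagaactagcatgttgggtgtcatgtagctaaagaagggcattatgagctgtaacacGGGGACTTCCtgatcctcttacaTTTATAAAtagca
Ccl6: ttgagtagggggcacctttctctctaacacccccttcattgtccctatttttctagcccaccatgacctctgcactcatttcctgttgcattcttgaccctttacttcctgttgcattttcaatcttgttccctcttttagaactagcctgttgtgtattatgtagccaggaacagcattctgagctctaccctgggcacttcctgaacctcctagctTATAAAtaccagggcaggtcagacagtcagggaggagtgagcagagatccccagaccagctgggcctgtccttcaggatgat
Cxcl16: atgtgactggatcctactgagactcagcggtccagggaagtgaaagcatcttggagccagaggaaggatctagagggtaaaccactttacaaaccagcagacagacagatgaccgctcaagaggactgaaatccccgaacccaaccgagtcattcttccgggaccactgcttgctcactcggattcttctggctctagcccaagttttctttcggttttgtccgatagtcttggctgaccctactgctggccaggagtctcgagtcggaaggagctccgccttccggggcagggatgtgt
Xcl1: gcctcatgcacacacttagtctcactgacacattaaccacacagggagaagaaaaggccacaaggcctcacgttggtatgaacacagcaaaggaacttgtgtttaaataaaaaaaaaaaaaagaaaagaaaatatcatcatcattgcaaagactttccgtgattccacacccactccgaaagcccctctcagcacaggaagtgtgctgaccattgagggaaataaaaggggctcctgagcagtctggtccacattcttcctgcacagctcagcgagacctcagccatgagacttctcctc
Ccr2: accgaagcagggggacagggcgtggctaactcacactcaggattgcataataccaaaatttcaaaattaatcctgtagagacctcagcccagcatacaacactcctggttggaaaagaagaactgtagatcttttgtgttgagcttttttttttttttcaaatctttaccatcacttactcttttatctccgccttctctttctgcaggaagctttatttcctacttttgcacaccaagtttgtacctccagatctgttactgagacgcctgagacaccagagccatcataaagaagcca
Cxcl10: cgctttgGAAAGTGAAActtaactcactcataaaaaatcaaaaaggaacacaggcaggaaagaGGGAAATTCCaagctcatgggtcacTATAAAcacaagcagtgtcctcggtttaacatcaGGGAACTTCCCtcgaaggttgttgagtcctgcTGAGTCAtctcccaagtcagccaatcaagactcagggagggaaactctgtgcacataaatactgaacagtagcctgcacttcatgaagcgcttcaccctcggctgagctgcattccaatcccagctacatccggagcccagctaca

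In the Ccl9 region the capitals hold NF-kB matches at bases -106 to -97 and 14 to 23 from the start and TATA matches on both sides of it. The Ccl6 region has a TATA match at -32 to -27 and none to the other 3 motifs. Positions count from the annotated starts, and the Ccl9 TATA match at 39 to 44 lies after its start, so these 2 regions were not aligned to each other. The Cxcl10 region holds an interferon element at -243 to -234, NF-kB matches at -187 to -178 and, overlapping, at -128 to -118, an AP-1 site at -96 to -90 and a TATA match at -162 to -157. The regions of Cxcl16, Xcl1 and Ccr2 have no match to the 4 motifs in these letters. Among the printed genes that were highest in high-fat replicate 4, Ccl9 and Cxcl10 thus had an NF-kB match and Cxcl16, Xcl1 and Ccr2 had none. Over the 32 members, 9 regions (28.1%) held an NF-kB match against 7.51% of 33469 regions of the same length. TATA matches were in 9 (28.1%) against 14.2%, AP-1 sites in 5 (15.6%) against 7.33%, and interferon elements in 2 (6.25%) against 3.92%. The 33469 regions can include several starts of the same gene, while each member gives a single region, so these shares are not in like units. The NF-kB matches were in Ccl7, Ccl9, Ccl20, Ccr3, Cxcl1, Cxcl2, Cxcl6, Cxcl10 and Cxcl11. These are descriptions of letters and say nothing of binding in these animals.

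Other genes of the pathway were read from lists of related genes. With limma, 0 of 48 measured genes passed the adjusted threshold, 1 had an unadjusted p under 0.05 (against 284 of 14217 genes, a similar share), and the high-fat mean was above the normal one in 24 and below it in 24. The gene with the low p was Rac1, a small GTPase of cell migration, at 1.62 within-group SDs (limma unadjusted p = 0.0467, and adjusted p of 1). Among chemokines and receptors outside the naming rule, the platelet chemokines Pf4 and Ppbp stood at -0.735 and -0.685 within-group SDs. Both were low in high-fat replicate 4, at -210.0 and -602 millionths, where the platelet markers, a list that includes these 2 genes, were lowest. Ackr1, the chemokine-binding receptor of red cells and venules, stood at 0.695 within-group SDs, with high-fat replicate 1 highest at 766 millionths. The mean over the 6 measured red cell markers was also highest in that animal (1.23). Hemgn and Ahsp were highest there, while Alas2, Slc4a1 and Klf1 were highest in other animals and Hbb hardly varied. The scaled level of the list ran from -0.575 to -0.326 in the normal and from -0.185 to 1.23 in the high-fat animals. Of the 6 genes, 3 had an unadjusted limma p under 0.05, against 284 of 14217 genes, and 0 passed the adjusted threshold. The part of these markers in the Ackr1 value was not tested. Ccrl2, a non-signalling receptor, stood at 0.490. High-fat replicate 4 was highest in 9 of 19 genes of signal transmission, among them the G protein subunit genes Gnai2, Gnb1 and Gng2, the GTPase gene Rac2 and the Src family kinase gene Fgr. It was also highest in 4 of 8 genes that switch receptors off, such as the regulators Rgs1 and Rgs2, in 4 of 6 integrin and arrest genes, with Itgb2 at 1607 millionths, and in 3 of 7 other chemoattractant receptors, with C5ar1 at 173 and S1pr5 at 510.2 millionths. Over all these lists it was the highest animal in 21 of 48 genes, beside 14.0% of all genes, and the part of its natural killer and monocyte markers in this was not tested.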

How the data were processed

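Biotin-labelled RNA from 8 whole blood samples was measured on Affymetrix 3' arrays, per the labels. The table the authors deposited holds values read here as log2 levels, from 5.19 to 15.25, because of their range. Background correction, normalization and the combining of probes are not given in the sources used here. Of 31099 probe sets, 57 controls were left out. Gene names came from the platform annotation (1 symbol for 20826 probe sets, several for 436, none for 9780), and all 41 members matched a RefSeq gene by number.

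A model of diet without covariates (4 against 4, two-sided) was fitted to each probe set in R 4.3.3 using limma 3.58.1, after the script had been checked on simulated data, and p-values were adjusted over 31042 probe sets by Benjamini-Hochberg. Single values were tested with an exact permutation test over 70 assignments, whose smallest p is 0.0286. No depth exists for arrays, so their number limits the precision. Array titles give biological replicate numbers, which are read here as separate animals, and no pair of arrays held more than 10 identical values.

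Genes given with values were the 2 brightest of each role, the 4 with the smallest p, the 4 with the largest SD and any without overlap between diets. Ccl2, Ccl3, Ccl4 and Ccr2 were added after their values were seen. Members and lists were chosen with earlier results of these data known. The alternatives were other normalizations, a brightness filter, other variance settings, array weights, a replicate block, averaged probe sets and leaving out each animal.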

Additional observations from a re-analysis of the deposited data

Results flagged for a closer look

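Dixon's test at the 95% level looked for a single animal far from the other 3 in 38 groups of 4 (19 genes, both diets). Chance alone gives such an animal in about 1 group in 20, but that rate does not apply here, because some of the genes were chosen for a large SD or after their values were seen, and the values are a description. High-fat replicate 4 stood apart from the other high-fat animals in Ccl5 (10013 millionths from the 8-animal mean), Xcl1 (164), Ccr1 (180.2), Ccl9 (522) and Ccl3 (92.8). Among the normal animals, replicate 2 stood apart in Ccr1 (132) and replicate 4 in Cxcl16 (-20.2).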

How the results depend on the processing

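No chemokine or receptor probe set passed the limma threshold (0 of 53, and 0 of all tested) with median centring, the brighter 50% of probe sets, trend and robust variances, array weights or any one animal left out. Quantile normalization gave 32 probe sets, 1 of them a further probe set of Cxcr4 whose values became identical within each diet. The number of members with a higher high-fat mean followed the scaling: 19 became 11 with quantile normalization and 2 with median centring. The brighter 50% of probe sets kept 21 members, of which 10 were higher (47.6%, beside 46.3% of all 41). Centring on the median of each array's deviations, chosen after seeing the data, gave 21. Leaving out 1 animal gave 16 to 30, with 30 without normal replicate 3. Members highest in high-fat replicate 4 went from 13 to 8 with quantile normalization and 4 with median centring. They were 7 of the 21 in the brighter 50% and stayed at 13 with centring on the median of deviations. The share of all genes under these settings is not given here, so the changes are not read as results about the members. Median centring moves the high-fat arrays by 66.0 millionths relative to the normal ones, while neighbouring levels near the median lie 78.2 millionths apart, so the shift is about the size of 1 step in rank.

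Because median centring subtracts the same 66.0 millionths from every high-fat minus normal difference, each difference between 0 and that value turned negative by construction, which says nothing about its stability: Cxcl3 (-64.8), Xcl1 (-1.72), Ccr6 (-65.8), Cxcr4 (-46.7), Cx3cr1 (-55.2), Cxcl10 (-58.7), Ccl9 (-28.4), Ccl3 (-38.5), Ccl4 (-29.7) and Ccr2 (-26.2), all in millionths. Quantile normalization reversed Ccr6 (-1.96), Ccr1 (36.7), Cxcr4 (-1498), Ccr3 (19.8), Ccl9 (-22.8), Ccl3 (-4.38) and Ccl4 (-14.0) and set Ccl6, Cxcr5, Cxcl10 and Ccl28 to a difference of 0, and the cause of these was not tested. Leaving out 1 animal spanned 0 for Ccl5 (-1440.2 to 2973), Cxcl16 (-194 to 318), Cxcl3 (-3.18 to 5.71), Cx3cl1 (-16.1 to 0.255), Ccr6 (-0.718 to 0.903), Cxcr5 (-7.00 to 1.17), Ccl9 (-130.1 to 113) and Ccl4 (-12.9 to 65.6). Members without overlap between diets numbered 0 to 3 in these fits.

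Replicate numbers are shared by the diets, and the labels do not say that they mark a shared litter or day. Same-numbered deviations correlated at 0.197, 0.355 and 0.140 for replicates 2, 3 and 4 and at -0.121 for replicate 1, and 5 of 8 samples correlated best with their own number. The numbers were not treated as a pairing, since this was not so in every pair, although a partial one is not excluded. With the replicate block, limma called 0 of all tested probe sets and 0 members, and 19 members were higher.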
